A study of Homo sapiens with 9 samples.

Results

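The epidermal differentiation complex (EDC) on chromosome 1 and the type I and type II keratin clusters on chromosomes 17 and 12 were followed through RAS-induced senescence (RIS) in chromosome contact maps of IMR90 cells, a line of human lung fibroblasts. The members were the 40 kb bins of the hg19 genome whose midpoint lay inside 1 of 3 coordinate ranges, which span S100A10 to S100A1, KRT222 to KRT17 and KRT80 to KRT18. These were 87 of the 77403 bins of the maps, with 42 in the EDC at chr1:151960001-153640000, 25 in the type I cluster at chr17:38800001-39800000 and 20 in the type II cluster at chr12:52560001-53360000. Values were held by 86 of the 87 bins, since chr1:153480001-153520000, at S100A6, S100A5, S100A4 and S100A3, had none. The last 9 bins of the EDC, from position 153280001 on and with 8 holding values, were also followed alone as its S100A part, and the other 33 as the EDC without the S100A part.

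All cells were of passage 20 to 25 and carried ER:HRAS(G12V), an oncogenic HRAS that acts only when a ligand binds the oestrogen receptor part fused to it, so the growing controls carried the construct too. Growing cells received no 4-hydroxytamoxifen (4OHT), and RIS cells received 4OHT at 100 nM over 6 days. In-nucleus ligation Hi-C was available from 3 growing and 2 RIS cultures, and capture Hi-C, in which baits enrich chosen regions, from 2 and 2. The study reports that a further RIS Hi-C sample was left out for few valid reads and low complexity. The label of growing Hi-C replicate 3 also names an MSCV vector. By growing replicate the Hi-C maps held 154318992, 175410468 and 180775315 contacts, and by RIS replicate 109967509 and 150689993. Each map averages both alleles over a whole culture, no RNA is part of it, and the labelled cell type could therefore not be set against marker genes.

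The EDC holds, side by side, genes that build the cornified outer layer of skin. They include the fused-type S100 genes such as FLG (filaggrin, which bundles keratin) and TCHH (trichohyalin), the late cornified envelope (LCE) genes, the small proline-rich (SPRR) genes with IVL (involucrin) and LORICRIN, and S100 genes for small calcium-binding proteins. Keratins form filaments from pairs of an acidic type I and a basic type II chain, and each type has its own cluster. The exception is KRT18, a type I gene that lies beside KRT8 in the type II cluster. Most of these genes are known for their use in keratinocytes, hair follicles and other epithelia, while some S100 genes such as S100A4, S100A6, S100A10 and S100A11 are used in many cell types. In Hi-C, a stretch of chromosome whose parts touch each other more than they touch its neighbours is a topological domain, and the place where contact across a point dips is a border, often held by the protein CTCF on its motif.

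Border strength was measured by the insulation score, the log2 mean contact across the edge of 2 bins within 520 kb relative to the chromosome mean, so that a lower score is a stronger border. In and beside the 3 clusters, 8 borders stood out in every Hi-C library (each at least 0.25 deep in log2 units against the scores around it). The 16 bins beside them were searched on both strands for CC, any 3 bases and AGGGGGC, a core of the CTCF consensus. Of these bins 10 held a match, against 12009 of 70902 bins of the genome (16.9%). The search used the reference sequence alone, so it cannot bear on any change in RIS. Below is 1 match from each of 5 borders, 30 bases in the orientation of the motif from GRCh37 (hg19), with the 12 motif letters in capitals. Matches at the borders at chr1:153760000 and chr17:38720000 are not shown. The scores of these borders differed by 0.0080 (limma adjusted p = 0.884) and -0.054 (limma adjusted p = 0.167) in RIS. The first lies at chr1:152023127-152023156 on the minus strand, between S100A11 and the TCHHL1 side of the EDC. The second lies at chr1:153467548-153467577 on the minus strand, between S100A7 and S100A6. The third lies at chr12:52546023-52546052 on the plus strand, left of KRT80. The fourth lies at chr12:53374768-53374797 on the minus strand, between KRT18 and EIF4B. The last lies at chr17:39819061-39819090 on the minus strand, between KRT17 and EIF1. All of them are outside protein-coding genes.
EDC left border: accaccttaCCCTGAGGGGGCtctaactcc
S100A7 to S100A6 border: caagattggCCAGCAGGGGGCggagtagac
type II left border: ccgtggcagCCGGCAGGGGGCggtgcccga
type II right border: cctagaaggCCACCAGGGGGCagagggagg
type I right border: cccggaccaCCGGCAGGGGGCgctgctgct
At the right border of the type I cluster 3 matches lay within its pair of bins, all on the minus strand, and the other matches stood at chr17:39815509-39815538 and chr17:39852392-39852421. No match was found in the 2 bins at the border between PGLYRP4 and S100A9, described next, which says only that these letters are not in that window. A match is a string of letters and not a measured binding site.

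In the Hi-C maps of the EDC, contact within the complex was higher in RIS, contact with the region to its right was lower, and a border between the skin barrier genes and the S100A9 to S100A7 genes was deeper. The rise within the complex was not seen in capture Hi-C, which was set against the captured regions and not the chromosome. The self-contact of the EDC there differed by 0.0056 over the captured bins and the groups overlapped. Contact with the left flank was lower by limma, but that call ended without RIS replicate 1 and on recovered contacts. The self-contact, the log2 ratio of observed contact between its bins to that expected at their distances on the chromosome, was -0.092, -0.10 and -0.057 in the growing libraries (here and below by replicate number). The RIS libraries had -0.0012 and 0.015. Both RIS libraries lay above all 3 growing libraries. The group means differed by 0.09 (SE 0.016, limma adjusted p = 9.46e-05 over all windows of the same length). Of all windows of the lengths used, 34.7% were called higher and 32.5% lower in this measure, so a call alone is common here. The median window differed by 0.013, with quartiles of -0.066 and 0.062, and the EDC lay above the upper one. Within the libraries with few PCR duplicates (growing 1 and 2 with RIS 1) the difference was 0.096 and within those with many (growing 3 with RIS 2) 0.073. Without balancing, on contacts as recovered, it was 0.19.

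Contact of the EDC with the 1.52 Mb to its right, log2 observed over expected, was -1.08, -1.01 and -0.90 in growing cells against -1.26 and -1.32 in RIS. The difference was -0.29 (SE 0.047, limma adjusted p = 0.000753), and -0.22 and -0.42 within libraries of few and of many duplicates. With the left flank the values were -1.16, -1.20 and -1.06 in growing cells against -1.30 and -1.26 in RIS, a difference of -0.14 (SE 0.041, limma adjusted p = 0.0151) that was -0.12 and -0.20 within the duplicate classes. Among flank contacts of all windows, 31.4% were called higher and 28.4% lower. The left-flank call ended without RIS replicate 1 (-0.12, limma adjusted p = 0.119), and the recovered contacts gave -0.047 (limma adjusted p = 0.46). The contact of the left with the right flank, across the complex, was -0.23, -0.28 and -0.21 in growing cells against -0.35 and -0.50 in RIS, -0.19 (limma adjusted p = 0.0542, past the threshold without RIS replicate 1 at 0.0398). By this measure 23.4% of windows were called higher and 30.8% lower. With 3 against 2 libraries an exact two-sided permutation test cannot give less than p = 0.1. The self-contact and the right flank reached this, and the left flank (exact p = 0.2) did not. Groups without overlap were common among the 63204 windows of this length. In self-contact 29486 windows had both RIS libraries above all growing ones and 23109 below. At the right flank these were 26026 and 21881, so a lack of overlap alone does not set the EDC apart.

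**Figure D1:**
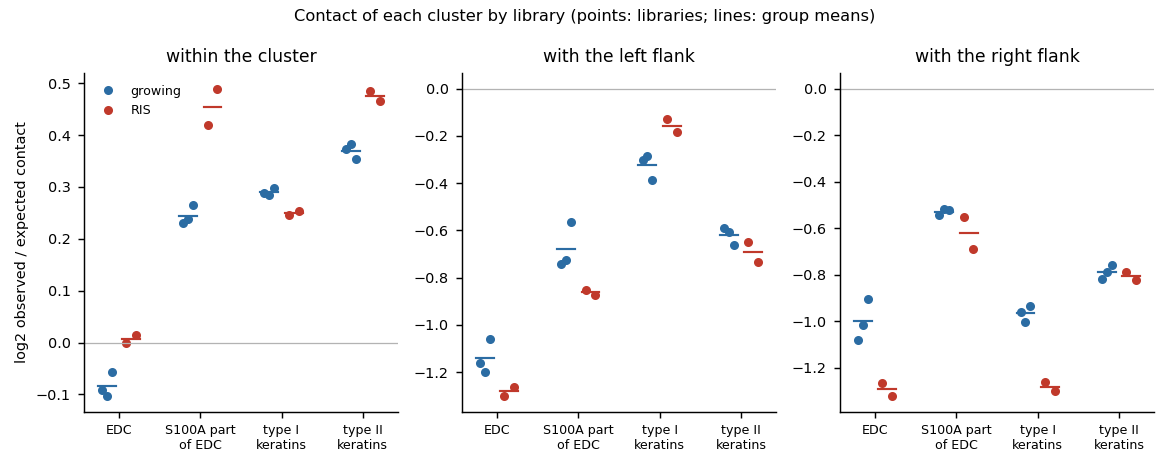
Contact of each cluster with itself and with its left and right flanks of 1.52 Mb, in log2 observed over expected contact, with 1 point for each of 3 growing and 2 RIS Hi-C libraries and a line at each group mean. RIS points lie above the growing points for self-contact of the EDC, its S100A part and the type II keratins, and below them at the right flank of the EDC and of the type I keratins.

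Single bins followed the same split. Of 41 EDC bins with values, 36 had a higher mean contact with the rest of the EDC in RIS, 39 a lower one with the right flank and 35 a lower one with the left flank. The own-cluster difference ran from -0.028 at the S100A10 bin to 0.25 at the bin after S100A7, and reached 0.22 at the bin of S100A8 and S100A7A. These bins share contacts with each other, so the counts describe the complex and are not separate tests. The bin of PGLYRP4, S100A9 and S100A12 was 1 of the 2 bins that had a higher mean contact with the right flank in RIS (-0.58 in growing, -0.44 in RIS). The other was the bin of LCE5A and CRCT1 (-2.27 and -2.10).

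Insulation inside the EDC was measured at 43 bin edges, and RIS was higher at 25 and lower at 8 limma at a false discovery rate of 0.05. Over the genome 25.7% of edges were called higher and 27.7% lower, so the share of higher edges was above the background and that of lower edges below it. Neighbouring edges share most of their contacts. Without RIS replicate 2 the fit called 20 of the 43. The largest rise lay at position 152720000, amid the LCE genes between LCE4A and C1orf68 on the left and KPRP, LCE1F and LCE1E on the right, where the score was 0.27, 0.25 and 0.23 in growing cells against 0.49 and 0.55 in RIS (0.27 higher, SE 0.031, limma adjusted p = 0.000207). Contact across this point, already above the chromosome mean in growing cells, was higher in both RIS libraries than in any growing one.

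The largest fall lay at the border at position 153320000, within PGLYRP4 and next to S100A9 and S100A12. PGLYRP3 and PGLYRP4 encode peptidoglycan recognition proteins that act on bacteria, and S100A8, S100A9 and S100A12 encode inflammatory calcium-binding proteins. The score there was -1.17, -1.11 and -0.98 in growing cells against -1.47 and -1.49 in RIS, a difference of -0.39 (SE 0.051, limma adjusted p = 0.000355). Its depth against the scores around it was 0.35, 0.29 and 0.28 in growing cells against 0.81 and 0.91 in RIS. The groups did not overlap in either value, and leaving out any library kept the call. The border at 153480000, between S100A7 and S100A6, was deeper as such (-1.48, -1.42 and -1.43 in growing, -1.58 and -1.64 in RIS). It differed by -0.17 (SE 0.033, limma adjusted p = 0.00298). The bin on its right is the one without values, so the nearest contacts across it are missing from its score in every library.

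At the left end, the border at 152040000 parts S100A11 from TCHHL1 and TCHH. It stood at -1.42, -1.42 and -1.36 in growing cells against -1.55 and -1.46 in RIS, a difference of -0.11 (SE 0.037, limma adjusted p = 0.0363). This call ended without RIS replicate 1 (-0.060) and without growing replicate 1 (-0.12), 2 (-0.12) or 3 (-0.086). The shallow border at 152440000, between CRNN and LCE5A, differed by 0.0058 (SE 0.037, limma adjusted p = 0.906). All 4 of these borders inside the EDC were found in all 5 Hi-C libraries.

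**Figure D2:**
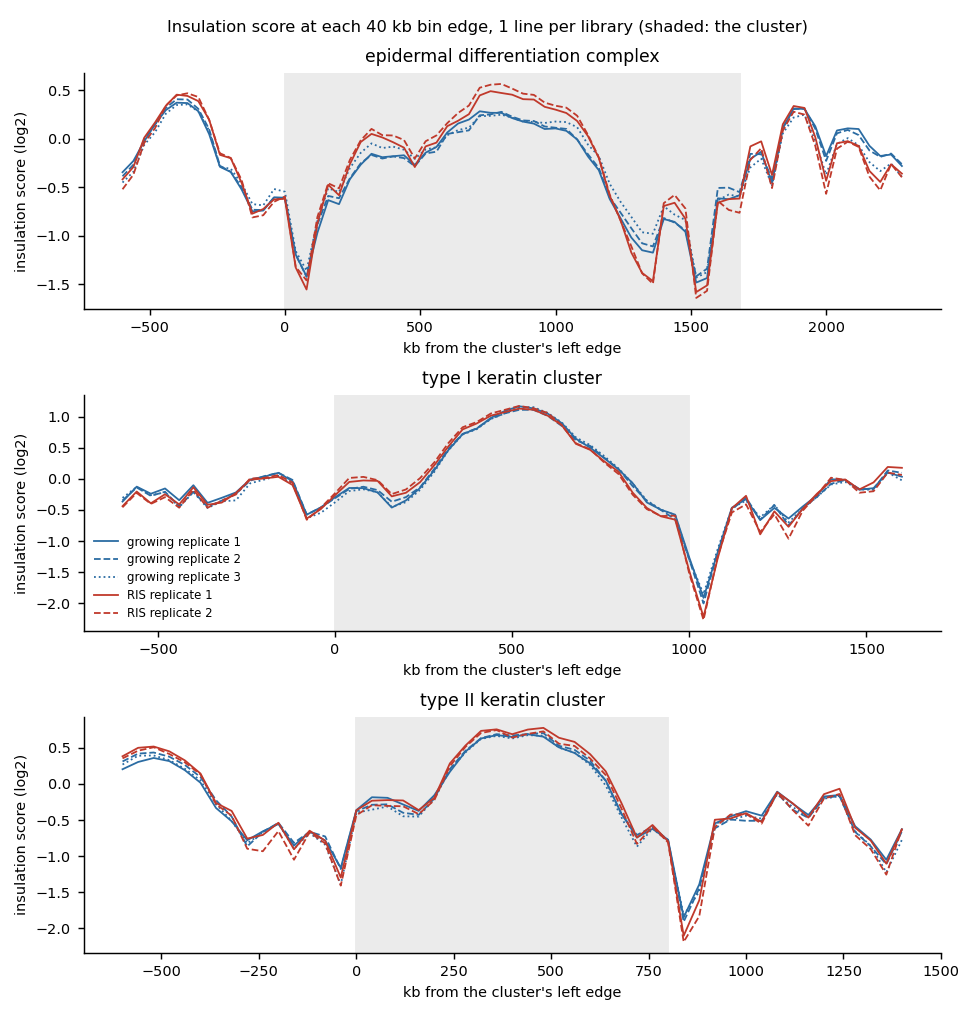
Insulation score in log2 units at each 40 kb bin edge against the distance in kb from the left edge of each cluster, with 1 line per Hi-C library (3 growing in blue, 2 RIS in red) and the cluster shaded. In the EDC the RIS lines lie higher in the middle and dip lower at 1360 kb, the PGLYRP4 to S100A9 border, and in both keratin clusters they dip lower at the right border.

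The S100A part of the EDC was itself higher in self-contact in RIS. Its values were 0.23, 0.24 and 0.26 in growing cells against 0.42 and 0.49 in RIS, a difference of 0.21 (SE 0.028) that stood at 0.19 and 0.22 within libraries of few and of many duplicates. Its contact with the left flank, where the barrier genes lie, was -0.74, -0.72 and -0.57 in growing cells against -0.85 and -0.87 in RIS. The difference was -0.18 (SE 0.048, limma adjusted p = 0.0104). It did not pass the threshold without RIS replicate 1 (-0.19, limma adjusted p = 0.0531) or RIS replicate 2 (-0.17, limma adjusted p = 0.0676). Contact between its 2 flanks, across the part, was -1.70, -1.55 and -1.24 in growing cells against -2.34 and -2.20 in RIS. That difference of -0.77 (SE 0.12, limma adjusted p = 0.00195) was the largest among the window measures of the 3 clusters, and it ranged from -0.87 to -0.65 with single libraries left out. To the right flank the groups were apart by little, at -0.54, -0.52 and -0.52 in growing cells against -0.55 and -0.69 in RIS (-0.093, SE 0.039, limma adjusted p = 0.0681). Without RIS replicate 1 this was -0.16 and past the threshold. It turned to 0.054 on recovered contacts and to 0.036 when bins with any overlap were taken. For the EDC without the S100A part, self-contact differed by 0.094 (SE 0.015) and contact with the right flank by -0.36 (SE 0.073, limma adjusted p = 0.00256).

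The genes were then grouped in 17 blocks, 151 genes in all, and the contact of each pair of blocks was compared. Of 28 block pairs in the EDC, 7 had both RIS libraries above all growing ones and 6 below. Over the 59 block pairs of the 3 clusters 62.7% did not overlap between groups. For self-contact of all windows of 9 bins it was 72.7%, so the share in the EDC was not above the background. After Benjamini-Hochberg adjustment over the block pairs of the EDC the smallest exact permutation p was 0.28. Values are given for the pairs with at least 100 contacts in every Hi-C library, no overlap of the groups and a difference of at least 0.25.

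By capture Hi-C, 8 of 27 EDC block pairs were higher and 7 lower in RIS with no overlap. Of all pairs of 100 kb tiles in the captured regions 34.8% were higher and 40.1% lower in this way, so neither share of the EDC was above the background, and being apart by capture is common.

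Among barrier genes, the fused-type S100 block met the involucrin, SPRR and loricrin block more in RIS. The log2 observed over expected contact was 0.64, 0.58 and 0.52 in growing cells against 0.97 and 0.95 in RIS, from 831 to 1212 contacts, a difference of 0.38. In capture Hi-C it was 0.60 and 0.58 in growing cells against 0.81 and 0.90 in RIS, again with no overlap. The fused-type S100 block and the PGLYRP block stood at 0.75, 0.80 and 0.70 in growing cells against 1.02 and 1.12 in RIS, but in capture Hi-C at 0.63 and 0.67 against 0.68 and 0.66, where the groups overlapped. The LCE block and the PGLYRP block stood at 0.12, 0.16 and 0.21 in growing cells against 0.48 and 0.56 in RIS, and in capture Hi-C at -0.017 and -0.039 against 0.15 and 0.13. So 2 of these 3 pairs were apart in the same direction by both methods, and by the shares above being apart is a common outcome by either method.

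Over the PGLYRP4 to S100A9 border, the 3 block pairs with at least 100 contacts in every Hi-C library were lower in RIS. The involucrin, SPRR and loricrin block and the block from S100A9 to S100A7 stood at -0.98, -0.86 and -0.79 in growing cells against -1.47 and -1.46 in RIS, from 229 to 563 contacts, and the difference was -0.59. In capture Hi-C the same pair stood at -0.70 and -0.63 in growing cells against -1.42 and -1.26 in RIS. The LCE block with S100A9 to S100A7 differed by -0.27 in Hi-C (without overlap on balanced values, but with overlap on recovered contacts) and by -0.40 in capture Hi-C. PGLYRP with S100A9 to S100A7 stood at -0.21, -0.27 and -0.21 in growing cells against -0.41 and -0.57 in RIS, and in capture Hi-C it differed by -0.074. Pairs over this border that rested on fewer contacts were mixed, and those given next are only ones that leaned higher. Over the whole EDC 6 block pairs were lower without overlap in Hi-C, 3 of them with at least 100 contacts in every library. S100A10 and S100A11 with S100A9 to S100A7 overlapped on balanced values (0.22) but were higher on recovered contacts (0.37), from as few as 17 contacts. With the block from S100A6 to S100A1, of which capture held 1 bin of 10 kb, capture contact was higher without overlap for LCE (0.99), PGLYRP (0.37) and S100A10 and S100A11 (0.36). Those 3 rested on as few as 33, 97 and 25 contacts in a library.

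Within the S100A9 to S100A7 block, which includes S100A8 and S100A7 (psoriasin), self-contact was 0.17, 0.15 and 0.13 in growing cells against 0.66 and 0.62 in RIS. In capture Hi-C it was 0.32 and 0.27 in growing cells against 0.37 and 0.39 in RIS. The groups were apart by both methods, by 0.49 and 0.085, sizes that rest on different expected contacts. By contrast, the block from S100A6 to S100A1 beyond the next border had a self-contact of 0.72, 0.82 and 0.73 in growing cells against 0.69 and 0.84 in RIS, with overlap. Over the 27 EDC block pairs measured by capture, 8 were apart by both methods, all 8 in the same direction. The share of such pairs in other captured regions was not measured. The study calls its capture libraries matching, so the methods may share cultures. The capture bins with values were 137 of the 170 bins of 10 kb of the EDC, at chr1:152000001-153530000, so they leave out S100A10 and most of the block from S100A6 to S100A1. Over these bins self-contact by capture was -0.032 and -0.048 in growing cells against -0.047 and -0.022 in RIS, a difference of 0.0056 with overlap (exact p = 0.667, 0.333 being the smallest that 2 against 2 allow).

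**Figure D3:**
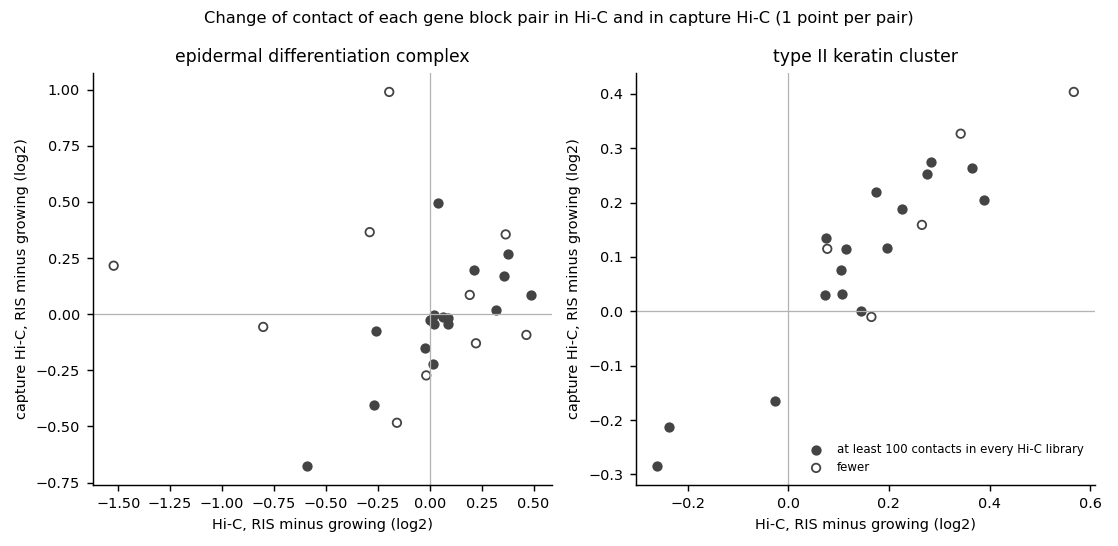
Change of contact (RIS minus growing, log2) of each gene block pair in Hi-C on the x axis and in capture Hi-C on the y axis, for the EDC and the type II keratin cluster, with filled points for pairs with at least 100 contacts in every Hi-C library and open points for fewer. In the type II cluster 16 of 21 pairs were apart in both methods and in the EDC 8 of 27, each changing in the same direction by both. The share of such pairs in other captured regions was not measured.

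The type I keratin cluster shifted contact from its right side to its left. With the 1.52 Mb on the right, past EIF1, contact was -0.96, -1.003 and -0.93 in growing cells against -1.26 and -1.30 in RIS, -0.31 (SE 0.030, limma adjusted p = 8.11e-05), and -0.28 and -0.37 within libraries of few and of many duplicates. With the left flank it was -0.30, -0.28 and -0.39 in growing cells against -0.13 and -0.19 in RIS, a difference of 0.17 (SE 0.036, limma adjusted p = 0.0038), and 0.16 and 0.20 within the duplicate classes. Both groups of values were apart on each side, which was common among the 63825 windows of this length. At the left flank 26145 of them were higher without overlap and 21827 lower, and at the right flank 26161 and 21680. Self-contact was 0.29, 0.28 and 0.30 in growing cells against 0.25 and 0.25 in RIS (-0.039, SE 0.016, limma adjusted p = 0.0411), but it turned to 0.040 with the expected contact taken over all chromosomes. This call also ended without growing replicate 1 (-0.040) or 3 (-0.035) and without RIS replicate 1 (-0.035) or 2 (-0.043).

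Of the 25 bins of the type I cluster, 22 had a higher mean contact with the left flank in RIS and 22 a lower one with the right flank. These counts rest on the same contacts as the flank values above and are not separate tests. The largest rise towards the left was at the bin of KRT36, KRT13, KRT15 and KRT19 (-0.23 in growing, 0.34 in RIS), which was also the bin whose contact with the right flank rose the most (-1.76 to -1.38). The largest fall towards the right was at the bin of KRTAP4-3, KRTAP4-2, KRTAP4-1 and KRTAP9-1 (-1.36 to -2.47), which encode keratin-associated proteins of the hair shaft.

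Of 26 bin edges, 10 were higher and 5 lower in insulation score in RIS, against 25.7% and 27.7% of the edges of the genome, and 8 were called in all without RIS replicate 2. Most edges of the genome were thus called too, and the count in the cluster does not stand out. The border at 39840000, right of KRT16 and KRT17 and left of EIF1, GAST and HAP1, was the deepest of those measured here. It stood at -1.91, -2.00 and -1.85 in growing cells against -2.22 and -2.27 in RIS, a difference of -0.32 (SE 0.043, limma adjusted p = 0.000436). At the next border on the right, 40000000, amid P3H4, FKBP10, KLHL10 and ACLY, the score differed by -0.23 (SE 0.029, limma adjusted p = 0.000353). The border at 38960000 parts KRT26, KRT27 and KRT28, of the inner root sheath of hair, from KRT10, of the upper epidermis. It stood at -0.46, -0.37 and -0.45 in growing cells against -0.28 and -0.25 in RIS, 0.16 higher (SE 0.036, limma adjusted p = 0.0046). Its depth against the scores around it was 0.32, 0.24 and 0.28 in growing cells against 0.26 and 0.28 in RIS, with overlap, so the score was higher while the depth did not differ beyond the spread of the libraries. The depth of the right border was 2.95, 3.03 and 2.93 in growing cells against 3.19 and 3.29 in RIS, with no overlap.

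By gene block, 7 of 10 pairs in the type I cluster were apart, 3 higher and 4 lower in RIS, all by less than 0.25 and with a smallest adjusted exact permutation p of 0.143. This share is no higher than the 72.7% for self-contact of all windows of 9 bins, which is another measure than contact of 2 blocks. The pairs given below were chosen after their values were seen. The strongest contact was that of the blocks at the ends, KRT24 to KRT40 with KRT13 to KRT17, which was 2.44, 2.32 and 2.38 in growing cells against 2.21 and 2.22 in RIS from 1033 to 1578 contacts (-0.17, but -0.048 with overlap of the groups on recovered contacts). KRT10, KRT12 and KRT20 are in the first of them, and KRT14, KRT16 and KRT17, of the basal layer and of wounded skin, in the second. The block from KRT13 to KRT17 had a self-contact of 0.00057, 0.0099 and 0.033 in growing cells against 0.14 and 0.16 in RIS. Its contact with the hair keratin block was 0.19, 0.10 and 0.16 in growing cells against -0.043 and -0.022 in RIS (-0.18, but -0.0079 with overlap on recovered contacts). KRT24 to KRT40 met the hair keratins at 1.52, 1.44 and 1.47 in growing cells against 1.60 and 1.64 in RIS. The type I cluster was outside the captured regions but for 2 bins of 10 kb, so no capture value is given for it.

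**Figure D4:**
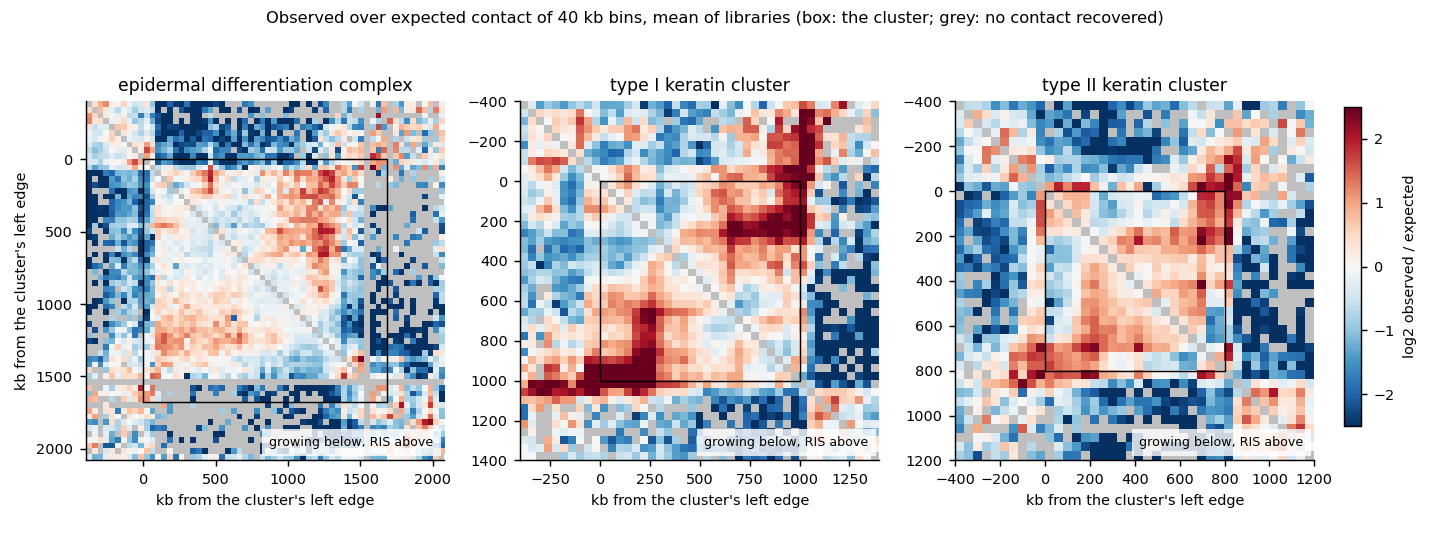
Log2 observed over expected contact of 40 kb bins in and around each cluster (box), averaged over the growing libraries below the diagonal and the RIS libraries above it, with both axes in kb from the left edge of the cluster and grey where no contact was recovered. The strong corner contact of the type I cluster joins the KRT24 to KRT40 block with the KRT13 to KRT17 block, and blue fields beyond the boxes are the depleted contacts with the flanks.

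The type II keratin cluster had a higher self-contact in RIS and little change towards its flanks. Self-contact was 0.37, 0.38 and 0.35 in growing cells against 0.49 and 0.47 in RIS, a difference of 0.11 (SE 0.018, limma adjusted p = 0.000122), and 0.11 within both duplicate classes. All 20 of its bins had a higher mean contact with the rest of the cluster in RIS, by 0.024 at the bin of KRT6B and KRT6C up to 0.19 at that of KRT74 and KRT72. The self-contact is made of these same contacts, so the count restates it and is not a separate test. On recovered contacts the difference in self-contact was 0.27. In capture Hi-C, with values in 72 of its 79 bins of 10 kb, self-contact was -0.074 and -0.083 in growing cells against 0.0018 and 0.018 in RIS, again with no overlap (difference 0.088, exact p = 0.333).

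With the left flank, contact was -0.59, -0.61 and -0.66 in growing cells against -0.65 and -0.74 in RIS, which overlapped (-0.074, SE 0.035, limma adjusted p = 0.096). This difference passed the threshold without growing replicate 3 (-0.095) and without RIS replicate 1 (-0.12). With the right flank the values were -0.82, -0.79 and -0.76 in growing cells against -0.79 and -0.82 in RIS (-0.019, SE 0.029, limma adjusted p = 0.591). That difference was 0.013 and -0.066 within the duplicate classes and 0.094 on recovered contacts.

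Of 21 bin edges in the type II cluster 7 were higher and none lower in RIS. The share of higher edges, 33.3%, is near the 25.7% of the genome, and 27.7% of edges there were lower. Between 0 and 6 edges were called with single libraries left out, at 3 without growing replicate 1, 4 without growing replicate 2 or 3, and 0 without RIS replicate 1. The largest rise, at 53240000 between the bin of KRT4, KRT79 and KRT78 and the next, was 0.13 (SE 0.033, limma adjusted p = 0.0106). The right border at 53400000, between KRT18 and EIF4B, stood at -1.85, -1.91 and -1.82 in growing cells against -2.10 and -2.19 in RIS, a difference of -0.29 (SE 0.038, limma adjusted p = 0.000386). At the left border, 52520000, the score was -1.16, -1.18 and -1.39 in growing cells against -1.30 and -1.41 in RIS (-0.11, SE 0.067, limma adjusted p = 0.202). Without growing replicate 3, the lowest of its group, that difference was -0.18 and passed the threshold. The border at 52400000, beside ACVR1B, differed by -0.12 (SE 0.045, limma adjusted p = 0.0465), but not past the threshold without growing replicate 1 (-0.12) or 2 (-0.10) or RIS replicate 2 (-0.049).

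Of 21 block pairs in the type II cluster, 15 were higher and 2 lower in RIS with no overlap, with a smallest adjusted exact permutation p of 0.191. For self-contact of all windows of 9 bins the share apart in either direction was 72.7%. Of those 64045 windows, 22267 were higher and 24286 lower, so the type II pairs lean more to higher. These pairs share bins, and self-contact is another measure than contact of 2 blocks. The values below describe the pairs, and a lack of overlap alone does not set them apart. The hair keratin block (KRT81 to KRT86) and KRT71 to KRT73, of the inner root sheath, stood at 0.52, 0.62 and 0.61 in growing cells against 0.86 and 0.86 in RIS. Each of the 3 blocks from the hair keratins to KRT73 met KRT8 and KRT18, the keratin pair of simple epithelia, more in RIS. For the hair keratins this contact was 1.27, 1.34 and 1.01 in growing cells against 1.48 and 1.496 in RIS. For KRT75 to KRT5, with the stress keratin genes KRT6A to KRT6C and the basal keratin KRT5, it was 0.11, 0.41 and -0.049 in growing cells against 0.54 and 0.51 in RIS. For KRT71 to KRT73 it was 0.042, 0.18 and -0.14 in growing cells against 0.52 and 0.30 in RIS, from 128 to 161 contacts. In capture Hi-C these 4 pairs were also higher without overlap, by 0.25, 0.27, 0.26 and 0.20 in the order given.

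The pair that was clearly lower was KRT75 to KRT5 with the block from KRT2 to KRT78, which holds KRT1, the partner of KRT10 in the upper epidermis. Its contact was 0.91, 0.94 and 0.92 in growing cells against 0.66 and 0.66 in RIS, from 586 to 1114 contacts, a difference of -0.26 on balanced values and -0.15 on recovered contacts. In capture Hi-C it was 0.44 and 0.53 in growing cells against 0.20 and 0.20 in RIS. The other lower pair was KRT2 to KRT78 with KRT8 and KRT18 (-0.24), which overlapped on recovered contacts. By capture, 16 of the 21 pairs were higher and 3 lower, against the 34.8% and 40.1% of all captured tile pairs. By both methods 16 were apart, all 16 in the same direction. The share of such pairs in other captured regions was not measured.

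Compartments were measured over 120 kb bins by an A/B score, the leading component of the contact pattern of the chromosome in SD units, in which gene-rich (A) chromatin is positive. Of the 14 bins of the EDC, 12 lay below 0 in growing, and the ones above it held S100A10 and S100A11 at the left end and S100A6 to S100A13 at the right. In RIS 2 bins were higher and 1 lower by limma, where over the genome 20.2% were higher and 23% lower. The bin of PGLYRP3, PGLYRP4, S100A9 and S100A12 was at -1.07, -0.91 and -1.004 in growing cells against -0.61 and -0.43 in RIS, 0.48 higher (SE 0.077, limma adjusted p = 0.00382). The next bin, of S100A8, S100A7A and S100A7, was at -0.40, -0.32 and -0.38 in growing cells against -0.070 and 0.16 in RIS, 0.41 higher (SE 0.076, limma adjusted p = 0.00615). The bin from SPRR1B to SPRR2F was at -1.20, -1.25 and -1.13 in growing cells against -1.33 and -1.50 in RIS, -0.22 (SE 0.070, limma adjusted p = 0.0397). Without RIS replicate 2 the fit called 1 EDC bin.

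Another measure was the log2 ratio of contact with A bins to contact with B bins beyond 2 Mb. By it 9 EDC bins were lower and 1 higher in RIS, against 30.6% lower and 34.3% higher over the genome. The bin of IVL, SPRR4, SPRR1A and SPRR3 was at -2.85, -2.60 and -2.29 in growing cells against -3.21 and -3.45 in RIS, a difference of -0.75 (SE 0.18, limma adjusted p = 0.00887). The bin of HRNR and FLG was at -2.63, -2.66 and -2.34 in growing cells against -3.23 and -3.05 in RIS. The bin that was higher was that of S100A8, S100A7A and S100A7, at -1.29, -1.28 and -1.39 in growing cells against -1.003 and -0.86 in RIS. The bin of PGLYRP3, PGLYRP4, S100A9 and S100A12, which had the largest rise in A/B score, was not called by this measure, at -1.93, -2.01 and -1.79 in growing cells against -1.80 and -1.79 in RIS (0.11, limma adjusted p = 0.411).

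In the keratin clusters, every bin past the threshold in either compartment measure moved towards A. The A/B score was higher in 3 of 9 type I bins and 5 of 7 type II bins and lower in none, against the 20.2% higher over the genome. The preference for A was higher in 6 of 9 and 6 of 7 bins and lower in none, against the 34.3% higher over the genome. With so few bins the type I share by A/B score is not far from the background. The type I count of 3 became 5 without growing replicate 1 and 1 without RIS replicate 1, and the type II count of 5 became 2 without RIS replicate 1 and 3 without RIS replicate 2. The bin of KRT71 to KRT73 with KRT74 and KRT2 had an A/B score of 0.17, 0.20 and 0.16 in growing cells against 0.60 and 0.57 in RIS, 0.41 higher (SE 0.051, limma adjusted p = 0.00178). The bin of KRT9, KRT14, KRT16 and KRT17 was at 0.39, 0.30 and 0.26 in growing cells against 0.73 and 0.59 in RIS, 0.34 higher (SE 0.068, limma adjusted p = 0.00779). In contrast, the bins of KRT80 and KRT7 (-0.16, limma adjusted p = 0.0551) and of KRT8 and KRT18 (-0.18, limma adjusted p = 0.0861), at the ends of the type II cluster and the highest in growing, were lower in mean A/B score but not past the threshold. For KRT8 and KRT18 the measures went opposite ways, with a preference for A of 1.43, 1.37 and 1.33 in growing cells against 2.44 and 1.596 in RIS (0.64 higher, limma adjusted p = 0.0426). By preference for A, 4 type II bins lay below 0 in growing and 0 in RIS.

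**Figure D5:**
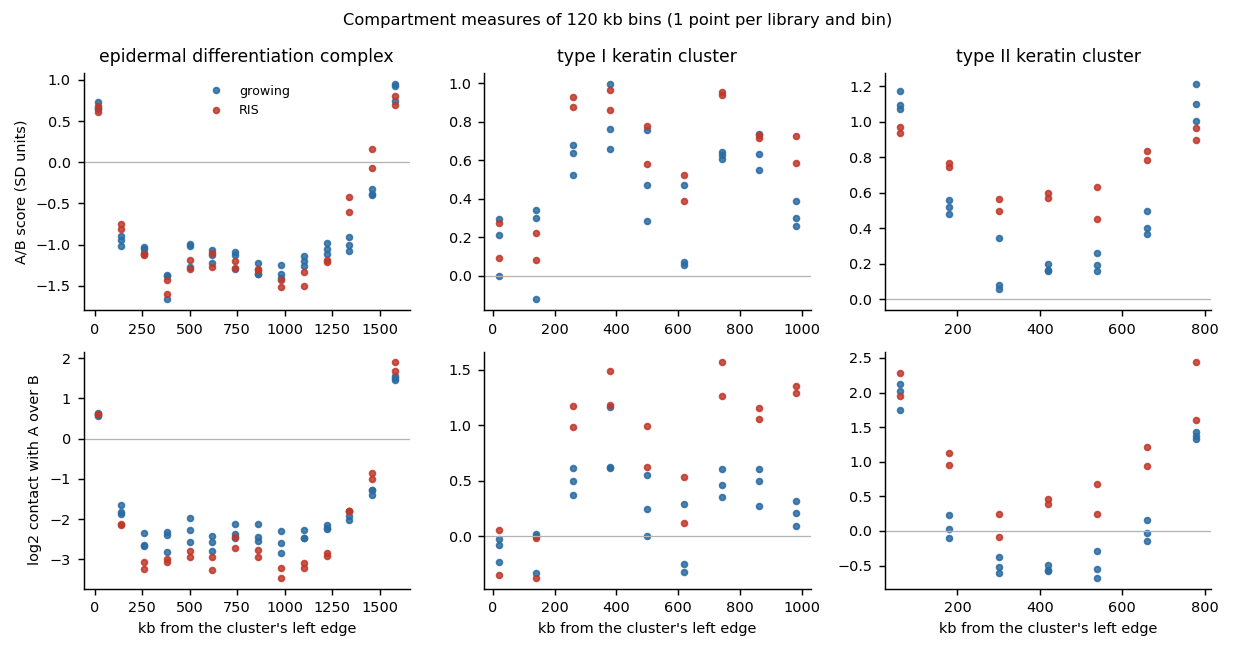
Compartment measures of 120 kb bins against the distance in kb from the left edge of each cluster, with the A/B score in SD units above and the log2 ratio of contact with A over B bins below, and 1 point per library (3 growing in blue, 2 RIS in red). In growing cells the EDC is below 0 except at both ends, with RIS points higher at the S100A9 to S100A7 bins in the upper row, and the inner type II keratin bins have higher RIS points in both rows.

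At the level of pairs of 40 kb bins the depth was low. Of 820 pairs within the EDC, 684 passed the filter of a mean scaled value of 5, and of the 2272 pairs with its flanks 229 did. By limma on balanced values no EDC pair was called, at 71 higher and 20 lower with an unadjusted p under 0.05 within the complex, where the median pair was 0.13 higher. Over the genome 0.0412% of pairs were called, and 199930 of 1958844 had an unadjusted limma p under 0.05 in either direction. In the type I cluster 300 of 300 inner pairs and 316 of 1731 flank pairs were tested by limma with no call (7 higher and 10 lower within, and 33 higher and 15 lower with the flanks, at an unadjusted p under 0.05). In the type II cluster, 188 of 190 inner pairs were tested with no call and 252 of 1464 flank pairs with 2 calls. These joined KRT4, KRT79 and KRT78 with CSAD, and KRT78 with CSAD, ZNF740 and ITGB7, and rested on 3 to 5 contacts in each growing library and 0 in RIS. Neither was called with any single library left out.

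A limma voom test on the recovered contacts, with their balancing factors put back and loess scaling, was run as an alternative. It called 13 EDC pairs higher and 2 lower, against 0.365% and 0.192% of pairs over the genome. It called 1 without RIS replicate 1 and 0 without RIS replicate 2. The 5 largest were all higher. The bin of LELP1 and PRR9, between the SPRR genes and LORICRIN, met a bin with no listed gene at 152440001 in 5, 8 and 9 contacts in growing and in 14 and 21 in RIS (1.59, limma voom adjusted p = 0.0192), and the one at 152400001 in 12, 9 and 11 against 18 and 21 (1.26, limma voom adjusted p = 0.0418). CRNN (cornulin, a fused-type S100 gene) and SPRR3 had 22, 19 and 16 contacts in growing and 28 and 33 in RIS (1.01, limma voom adjusted p = 0.0422). LCE4A and C1orf68 met SPRR2G in 22, 36 and 24 against 34 and 50 (0.98, limma voom adjusted p = 0.0174). These 4 pairs join genes or bins inside the barrier part of the EDC, on few contacts each. The bin of PGLYRP4, S100A9 and S100A12 and that of S100A4, S100A3 and S100A2 had 39, 25 and 23 contacts in growing and 38 and 46 in RIS (0.96, limma voom adjusted p = 0.0185).

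The bin of PGLYRP4, S100A9 and S100A12 took part in 6 of the 15 calls, and the next 3 pairs, which are not among the 5 largest, were chosen after their values were seen. It met the bin of S100A8 and S100A7A in 315, 310 and 335 contacts in growing and in 305 and 448 in RIS. The difference was 0.46 after balancing and loess scaling (limma voom adjusted p = 0.000529). It met the bin of PGLYRP3 and PGLYRP4 across the border in 214, 240 and 228 contacts in growing and in 111 and 171 in RIS (-0.43, limma voom adjusted p = 0.0498). It met the LORICRIN bin in 92, 80 and 76 contacts in growing and in 39 and 31 in RIS (-0.88, limma voom adjusted p = 0.0166). Loricrin is the main protein of the cornified envelope.

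By the same test 4 flank pairs of the type I cluster were higher, each joining IKZF3, a lymphoid transcription factor gene to the left, with KRT25, with KRT26 to KRT28 or with KRT222. The pair of IKZF3 with KRT26, KRT27 and KRT28 had 24, 21 and 13 contacts in growing and 35 and 30 in RIS (1.28 higher, limma voom adjusted p = 0.00501). IKZF3 with KRT222 and SMARCE1 had 30, 28 and 27 contacts in growing and 42 and 43 in RIS (1.11 higher, limma voom adjusted p = 0.00336). Its 2 bins met KRT25, at 22, 37 and 31 contacts against 32 and 47 (0.99 higher) and at 38, 55 and 48 against 62 and 58 (0.89 higher). Inside this cluster 1 pair was higher and 2 lower, and KRT25 with KRT16 and KRT17 was at 58, 63 and 51 contacts in growing and 26 and 20 in RIS (-0.90, limma voom adjusted p = 0.0492). No type I pair was called without RIS replicate 1. In the type II cluster 3 inner pairs were higher and 1 lower, none of them without RIS replicate 1 or without RIS replicate 2. KRT6B and KRT6C with KRT76 and KRT3 had 93, 93 and 78 contacts in growing and 45 and 36 in RIS (-0.73, limma voom adjusted p = 0.0487). The hair keratin bin of KRT85, KRT84 and KRT82 and the bin of KRT74 and KRT72 had 98, 107 and 97 contacts in growing and 126 and 155 in RIS (0.62 higher, limma voom adjusted p = 0.00709). The other two joined neighbouring bins, KRT6A and KRT5 with KRT71 and KRT74 (0.36 higher) and KRT7, KRT86 and KRT81 with KRT86, KRT81 and KRT83 (0.31 higher).

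In capture Hi-C, with 171661035 and 149306264 contacts in growing and 99777666 and 69091775 in RIS, pairs of 10 kb bins inside the captured regions were tested. Limma on balanced values called 7 of 9202 EDC pairs, all higher, and 0 of 2556 type II pairs. Over all captured pairs 0.0391% were called. At an unadjusted limma p under 0.05, 223 type II pairs were higher and 192 lower. In either direction 48083 of 329692 captured pairs were under it. The 7 had 0 contacts in growing and 1 to 3 in RIS, and none was called with any library left out. Limma voom called 458 EDC pairs higher and 322 lower and 229 and 166 type II pairs, against 4.24% and 3.71% of all captured pairs. With single libraries left out these totals ranged from 365 to 607 in the EDC and from 167 to 318 in the type II cluster.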

How the data were processed

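Hi-C contact maps at 40 kb (3 growing, 2 RIS libraries) and capture Hi-C maps at 10 kb (2 and 2) were used. Per the labels and the study's methods, the authors aligned reads to hg19 with HiC-Pro after FastQC, removed artefacts and duplicates and balanced each map by iterative correction. The deposited values are this balanced contact signal per pair of bins, which evens out the visibility of bins, so a change common to all contacts of a bin is removed. Bin lengths summed to those of GRCh37 for 24 of 24 chromosomes. Dividing each value by its 2 bin factors gave whole contacts within 0.05 of a contact for 100% of pairs with up to 10 contacts. Above that the tolerance grew with the count, so the check says less about pairs with many contacts. Depths and recovered contacts could thus be given. The 2 RIS maps were the shallowest, which limits the tests of bin pairs.

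Observed over expected contact in Hi-C took the mean by distance on the same chromosome and library, without the diagonal. In capture Hi-C it took the mean by distance over all pairs within captured regions of the same library. Sizes by the 2 methods are therefore not on the same scale. Flanks were 38 bins (1520 kb). Windows of the cluster's length along the whole genome, insulation scores (13 bins on each side), A/B scores and bin pairs up to 2 Mb apart (log2 of the loess-scaled value plus 0.5, span 0.3, mean of at least 5) were tested with limma 3.58.1 in R 4.3.3, RIS against growing, with Benjamini-Hochberg adjustment over all features and calls at 0.05. A limma fit with voom took its weights from recovered contacts, and its values were these contacts with the balancing factors put back and loess scaling. Borders were minima at least 0.1 deep. Block pairs were compared by exact two-sided permutation. The study describes its replicates as biological, and p-values measure the spread between these libraries. The duplicate classes follow the study's own library statistics. Scripts were checked on simulated data. Genes are named by block, at the borders, at the edge of largest called change and in the 5 called pairs of 40 kb bins of largest change per cluster, and a few more pairs and bins were chosen after their values were seen. Block pairs were named by 100 contacts, a difference of 0.25 and no overlap, apart from the type I pairs, the S100A6 to S100A1 self-contact and the second lower type II pair, which were chosen after their values were seen. The members, gene blocks and lists were chosen with earlier results of these data known.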

Additional observations from a re-analysis of the deposited data

How the results depend on the processing

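Results here rest on 3 growing and 2 RIS libraries and on few contacts per bin pair. Of the main results, 267 recomputed values stayed the same, 57 counts or values moved, 14 lost and 6 gained a call and 6 changed sign. The cause was not tested. For tested values staying the same meant the same direction and call, and for counts a similar size. For untested differences it meant a change smaller than the larger group SD. Leaving out single libraries, differences in window contact ranged as follows. Self-contact ranged from 0.082 to 0.10 in the EDC, 0.085 to 0.10 without its S100A part, 0.18 to 0.25 in the S100A part, -0.043 to -0.035 in type I and 0.097 to 0.12 in type II. Left-flank contact ranged from -0.17 to -0.10 in the EDC, -0.22 to -0.13 in the S100A part, 0.14 to 0.20 in type I and -0.12 to -0.030 in type II. Right-flank contact ranged from -0.33 to -0.25 in the EDC, -0.43 to -0.27 without its S100A part, -0.16 to -0.024 in the S100A part, -0.33 to -0.30 in type I and -0.035 to -0.0022 in type II. Across the EDC it ranged from -0.26 to -0.11 and across the S100A part from -0.87 to -0.65. Block pairs apart ranged from 14 to 21 in the EDC, 7 to 10 in type I and 17 to 20 in type II. Called edges ranged from 20 to 34, 8 to 13 and 0 to 6, and called A/B bins from 1 to 3, 1 to 5 and 2 to 6, in the same order. Called bin pairs were 0 in each cluster by limma and ranged from 0 to 11, 0 to 8 and 0 to 5 by voom. Called capture pairs were 0 by limma and ranged from 365 to 607 (EDC) and 167 to 318 (type II) by voom.

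With expected contact over all chromosomes, the EDC left flank was -0.090 (limma adjusted p = 0.0816), type I self-contact 0.040 and the type II right flank 0.0090. On recovered contacts the EDC left flank was -0.047, the S100A left flank -0.13 (limma adjusted p = 0.0594), the S100A right flank 0.054, type I self-contact -0.017 and the type II right flank 0.094. With bins of any overlap the S100A right flank was 0.036, and without neighbouring bins type I self-contact was -0.011. Among libraries with many duplicates (1 against 1, no test) the right flank of the EDC was -0.42, the contact across it -0.30, the S100A left flank -0.31, the type I right flank -0.37 and the type II right flank -0.066. Among those with few, type I self-contact was -0.039 (limma adjusted p = 0.146) and the type II right flank 0.013. With this class as a block, 11 type II edges were called.

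Insulation in windows of 280 kb called 8 type I edges. The other A/B measure called 10 EDC and 6 type I bins, and 200 kb bins called 2 type II bins. Type II bin pairs called were 0 with a pseudocount of 1 or a minimum of 10 or 1. Voom called 15 EDC, 7 type I and 4 type II pairs, and 780 EDC and 395 type II capture pairs. A minimum of 10 called 4 EDC capture pairs.

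Growing and RIS libraries share replicate numbers, and deviations of same-numbered pairs correlated at 0.0035 and -0.00038 over bin pairs. With 2 RIS libraries the deviations of one mirror those of the other, and most bin pairs hold few contacts. This check therefore cannot tell whether same-numbered libraries were paired. With a replicate block (growing replicate 3 then adds nothing), the S100A right flank was -0.091 (limma adjusted p = 0.046) and the type II left flank -0.095 (limma adjusted p = 0.0253), both now called, and type I self-contact was -0.035 (limma adjusted p = 0.0983). The block left 4 type II edges, 0 type II bin pairs and 0 EDC capture pairs called.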

Other observations

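The 3 clusters lie on different chromosomes, and contacts between them were too few to compare. Over all pairs of bins, each Hi-C library held 2 to 9 contacts of the EDC with the type I cluster, 2 to 11 of the EDC with the type II cluster, and 4 to 11 of the type I with the type II cluster. The last of these was 3.29, 2.75 and 2.16 times the balanced contact expected from the 2 chromosomes in growing replicates 1 to 3 and 1.53 and 1.91 times in RIS, with 11, 8 and 7 contacts in growing and 4 and 8 in RIS.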
